A study of Mus musculus with 19 samples.

Results

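Libraries of mice aged postnatal day 27 were compared with libraries of mice aged day 26, in nuclear RNA of SOX9-positive, NEUN-negative nuclei of the cortex. The labels give 8 libraries of day 26 and 9 of day 27, together 17 of the 19 libraries of the series, and the other 2 are of day 28. Each library belongs to 1 of 4 genotypes, named here WT, Smad4 cKO, Fmr1 KO and double mutant. Day 26 holds 1 WT, 3 Smad4 cKO, 2 Fmr1 KO and 2 double mutant libraries. Day 27 holds 2 WT, 2 Smad4 cKO, 3 Fmr1 KO and 2 double mutant libraries. All were on C57BL/6J with ordinary housing, and every group, WT included, carried the floxed Smad4 allele on both chromosomes. The WT animals were Fmr1 +/y without the Gfap-Cre73.12 transgene, which drives Cre from the Gfap promoter, the Smad4 cKO animals carried that Cre, the Fmr1 KO animals were Fmr1 -/y without it, and the double mutants were Fmr1 -/y with it. The Fmr1 mutation is carried by every cell of the body, whereas the Cre acts only where and when the Gfap promoter has been active. The labels give no date of dissection, sorting or sequencing, so an age difference of a day cannot be told apart from a session shared by animals of the same age. They also do not say which libraries came from littermates, and the p-values measure the spread between these libraries.

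Astrocytes take up glutamate and potassium, supply neurons with lactate and cholesterol, and shape synapses through secreted and membrane proteins. The fourth postnatal week of the mouse falls in the time when cortical astrocytes have stopped dividing and complete their maturation, while cortical circuits are still refined by experience. The sort keeps nuclei that carry the transcription factor SOX9 and removes those that carry NEUN, the protein of Rbfox3, which marks most neurons. A nuclear preparation holds unspliced and noncoding RNA in larger part than whole-cell RNA does. In such sorted material a change in the share of nuclei of a type and a change in RNA per nucleus cannot be told apart.

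The deposited values are TPM, a transcript abundance that is scaled by gene length and keeps no read totals, so depth is unknown. Listed TPM summed to between 665382 and 716222 in the 17 libraries, and between 17513 and 18370 of 24537 genes were above 0. The precursor of ribosomal RNA, Rn45s, took 15.6% to 27.3% of listed TPM on day 26 (mean 20.59 ± 3.62, SD, n = 8) and 15.8% to 35.7% on day 27 (25.08 ± 7.36, n = 9). Its difference within genotypes, 4.65 percentage points, gave p = 0.0522 in a 2-sided exact permutation test over 1800 arrangements (adjusted p = 0.104 over 2 library values). Leaving out Smad4 cKO replicate 3 or 5, Fmr1 KO replicate 5, or double mutant replicate 1 or 3 gave 5.07, 5.99, 5.21, 5.28 and 5.56 points, each with an unadjusted exact permutation p between 0.0181 and 0.0444. Every other run without 1 library gave an exact permutation p of at least 0.05, and the differences of all 17 runs ran from 3.00 to 5.99 points. With all 17 libraries the number of genes above 0 was 201.2 higher on day 27 in the same test (exact permutation p = 0.131). It was 253.5 higher without Fmr1 KO replicate 4 (0.0444), the only one of 17 such runs under 0.05. These runs gave 153.2 to 253.6. Fmr1 lay between 20.7 and 31.7 scaled TPM in the 8 libraries labelled Fmr1 +/y and between 35.6 and 41.7 in the 9 labelled Fmr1 -/y. The transcript was thus higher in the libraries that carry the mutant label. Smad4 lay between 29.9 and 36.2 in all 17 libraries, and a value for the whole gene cannot show the floxed part. Libraries are therefore named by their labels. Astrocyte markers were abundant on both days, with Slc1a2, the main glutamate transporter, at 1612 to 2794 scaled TPM on day 26 and 1624 to 2281 on day 27.

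Day 27 differed from day 26 in 618 of 15038 tested genes (4.11%) at an adjusted p under 0.05, with the 4 genotypes as a term of the limma model. Of these, 398 were higher on day 27 (2.65% of tested genes) and 220 lower (1.46%). The genes that rose changed more: their median log2 difference was 0.82, against -0.32 for those that fell, and 90 of the 100 that changed by over 2-fold were higher. Scaled TPM is TPM divided by a library factor, and differences are of log2(scaled TPM + 1), which understates the change of genes near 1 TPM. Among all tested genes 7415 (49.3%) lay above 0 and 50.7% below, with a median of -0.003. An unadjusted limma p under 0.05 was found for 3333 of the 15038, of which 1702 were higher on day 27. The sign was the same in each of the 4 genotypes for 615 of the 618 called genes, against 28.5% of all tested genes, and the called genes were chosen on the mean of those same differences. The libraries of the days did not overlap for 55 called genes, 43 higher and 12 lower, which compares with 56 (0.372%) of all tested genes, 0.293% higher and 0.0798% lower.

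The calls rest on few libraries per day. Without WT replicate 1, the single WT library of day 26, limma called 0 genes, with 2431 at an unadjusted p under 0.05 and a smallest adjusted p of 0.0546. The median differences of the 618 genes were then 0.71 and -0.30, and all 618 kept their sign. Every call of the model with day and genotype was thus lost without that library. Leaving out other libraries gave 91 calls without Fmr1 KO replicate 2, 101 without Smad4 cKO replicate 6, 177 without Fmr1 KO replicate 1, 248 without Smad4 cKO replicate 1, between 339 and 373 without WT replicate 3, WT replicate 4, Smad4 cKO replicate 3 or double mutant replicate 1, and 449 to 925 without each of the other 8. Of the 58 called genes that the naming rule gave, 31 stayed called in all 16 of these other fits, among them those it took by adjusted p alone, 15 in each direction. The latter were picked for a small p in these same libraries, and each fit leaves out only 1 of them, so their staying called is no separate support. Pcdhga6, Pcdhga7, Pcdhga8 and Pcdhgb4 among them count the same reads in large part. The calls of Lrp1 (3 of 17 fits), Rplp2 (4), Insig1 (5), Dcx and Rps9 (6), H2-K1 and Lamb2 (8), and Sc5d (9) were among those kept least often.

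**Figure D1:**
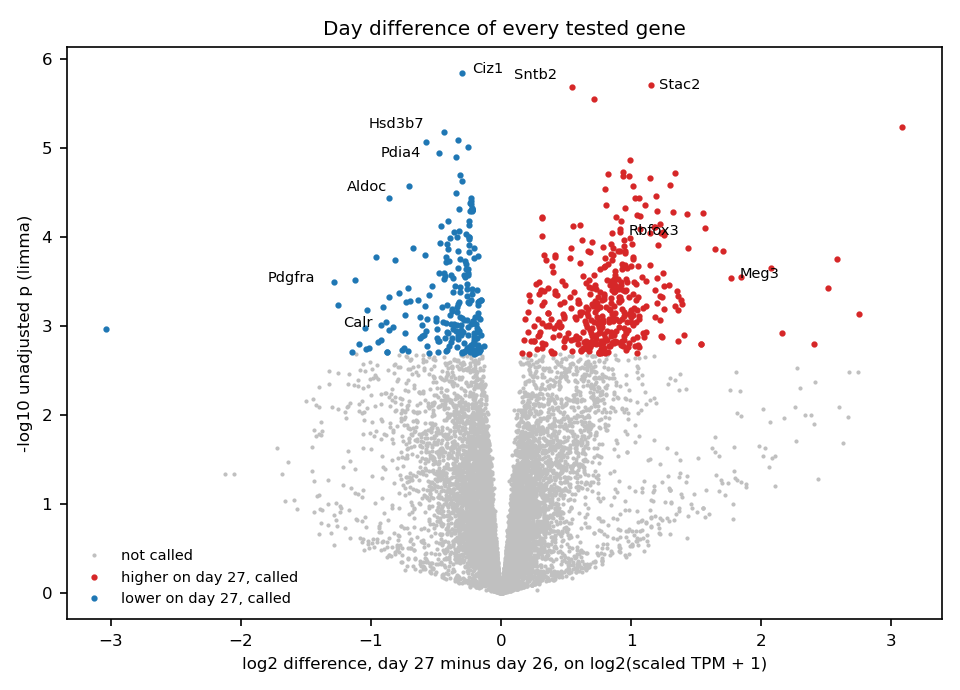
Difference between day 27 and day 26 for each of 15038 tested genes (x axis, log2) against the -log10 of the unadjusted limma p (y axis). Each point is a gene, and called genes are red (398 higher) or blue (220 lower). The red points reach further from 0 than the blue ones, and the 10 labelled genes are described in the text.

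Among the genes that rose with the smallest p was Stac2 (chromosome 11, 98036623 to 98053462, build GRCm38), which encodes an adaptor of voltage-gated calcium channels. It had scaled TPM of 0.496 at the lowest, 0.863 at the median and 1.83 at the highest on day 26. On day 27 the same figures were 2.28, 2.92 and 5.43. Every day-27 library stood above every day-26 library, and the log2 difference was 1.15 ± 0.15 (SE, adjusted p = 0.0103). Chga, the secretory granule protein chromogranin A, was at 0.890 to 3.01 on day 26 and 3.54 to 6.98 on day 27, again without overlap (0.94 ± 0.15, adjusted p = 0.0163). Kctd16, an auxiliary subunit of GABA-B receptors, rose by 1.34 ± 0.21, Cdh9, a classical cadherin, by 1.14 ± 0.18, Chrm3, a muscarinic acetylcholine receptor, by 1.03 ± 0.17 and Slitrk4, a synaptic adhesion protein, by 0.80 ± 0.13, and in none of the 4 did the days overlap. Kcnj3, a G-protein-gated potassium channel, rose by 0.99 ± 0.16, Gabrd by 1.06 ± 0.18 and the splicing factor Rbfox1 by 1.19 ± 0.20, with overlap of the days.

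The same set held genes of several other known roles. Sntb2, a syntrophin of the dystrophin complex (chromosome 8, 106935750 to 107019714), was at 3.47, 4.30 and 5.36 scaled TPM on day 26 (lowest, median, highest) and 4.98, 7.09 and 9.01 on day 27. The days overlapped at their edges, and the difference was 0.55 ± 0.07 (adjusted p = 0.0103). Asns, which makes asparagine, rose by 1.01 ± 0.17, while the 13 other tested genes of an amino acid response list, added after its values were seen, gave 0 further calls, and the list's median was 0.003. The vomeronasal receptor genes Vmn2r87 and Vmn2r85 were higher by 0.72 ± 0.10 and 0.83 ± 0.13 at levels of at most 4.24 and 2.51 scaled TPM, and near-identical members of that family can share reads. Paqr9, a membrane receptor of the progestin and adipoQ family, rose by 0.94 ± 0.15.

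Markers of neurons were higher on day 27 as a whole list, in nuclei that had been sorted against NEUN. All 20 tested markers had a difference above 0, with a median of 0.89, and 14 were called (2.65% of all tested genes were called higher). Rbfox3, which encodes NEUN (chromosome 11, 118489762 to 118911597), was at 1.13, 1.61 and 2.82 scaled TPM on day 26 and 2.40, 4.56 and 9.63 on day 27. The days overlapped through 1 day-26 library, Fmr1 KO replicate 3, and 1 day-27 library, Fmr1 KO replicate 5, and the difference was 1.21 ± 0.23 (adjusted p = 0.0200). Without Fmr1 KO replicate 2 Rbfox3 was no longer called (1.19). Inhibitory neuron genes were among the called markers. Gad1 and Gad2, which make GABA, differed by 1.25 ± 0.29 and 1.04 ± 0.23, the vesicular GABA transporter Slc32a1 by 0.88 ± 0.22 and the neuropeptide Sst by 1.34 ± 0.30. Pan-neuronal genes were called as well, namely the synaptic vesicle proteins Syt1 (1.23 ± 0.23) and Syn1 (0.65 ± 0.14), the SNARE protein Snap25 (0.91 ± 0.22), the tubulin Tubb3 (0.84 ± 0.19), Stmn2 (0.88 ± 0.18) and Nefm (0.91 ± 0.22). Of excitatory neuron markers Slc17a7, the cortical vesicular glutamate transporter, was not called (0.66 ± 0.25, adjusted p = 0.142), nor was Neurod6 (0.47 ± 0.28).

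The levels of these markers were low beside those of astrocyte genes on either day. The neuron list summed to 73.4, 129 and 173 scaled TPM on day 26 (lowest, median, highest) and to 154, 230 and 441 on day 27. The astrocyte list summed to 11100, 14200 and 18600 and then to 9490, 11200 and 12200. The neuron sums of the days overlapped only between 154 and 173, and the astrocyte sums between 11100 and 12200. The libraries with the highest neuron score in each genotype were all of day 27.

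**Figure D2:**
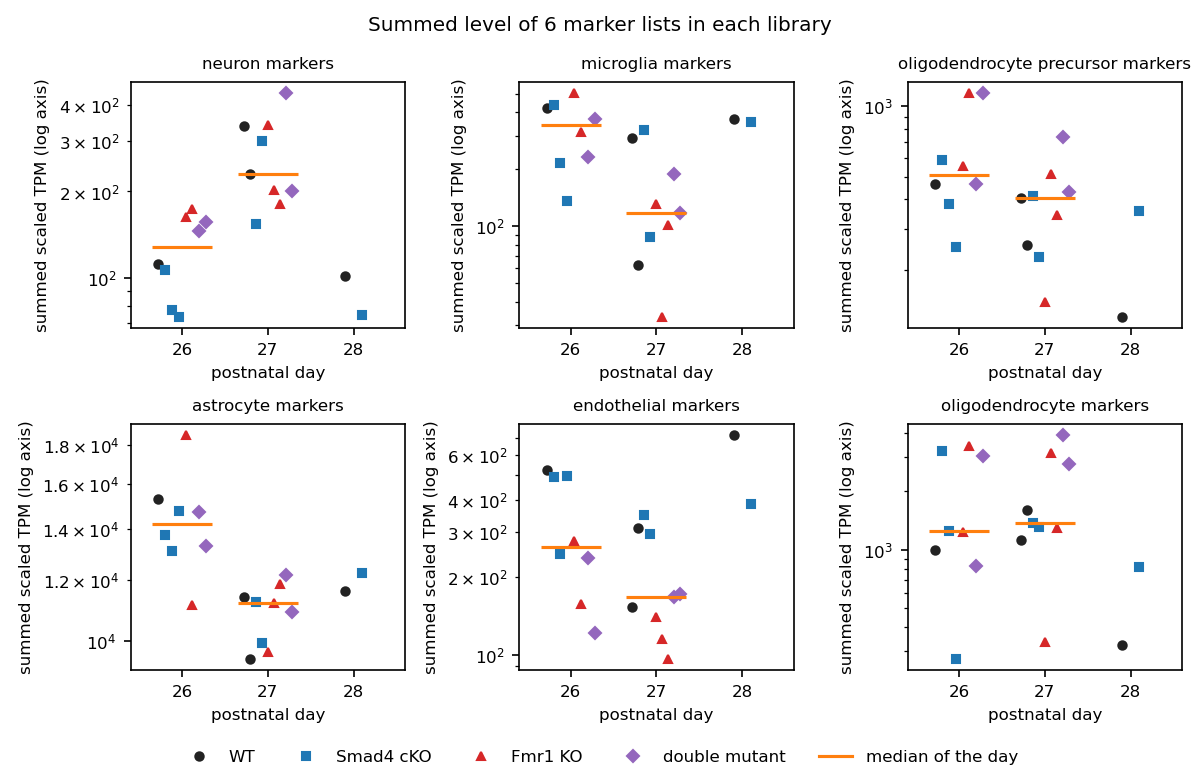
Summed scaled TPM (y axis, log) of 6 lists of cell-type markers in each of the 19 libraries by postnatal day (x axis). Points are libraries, shapes and colours are genotypes, and the line is the median of the day. Neuron markers reach 441 on day 27 against at most 173 on day 26, and microglia markers are as low as 33.2 on day 27 against at least 135 on day 26.

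Families of neuronal receptors and channels, picked after their values were seen, held calls in the higher direction, while their summed levels differed less between the days. Of all tested genes 49.3% lay above 0 and 2.65% were called higher. Of 10 tested GABA-A receptor subunits 9 lay above 0 and 6 were called higher, with a median of 0.73. Of 16 ionotropic glutamate receptor genes 13 lay above 0 and 6 were called, among them Grin2a, an NMDA receptor subunit that increases as circuits mature, from 1.62 to 3.71 scaled TPM on day 26 to 3.39 to 11.9 on day 27 (1.19 ± 0.22). Of 6 metabotropic glutamate receptors all lay above 0 and 4 were called. Grm5, which young astrocytes also express, was at 3.12 to 7.27 on day 26 and 7.29 to 11.8 on day 27, without overlap (0.68 ± 0.14, adjusted p = 0.0257). Of 72 potassium channel subunits 54 lay above 0 and 23 were called, with Kcnc2, a fast-spiking Kv3 channel, at 1.64 ± 0.32 and Kcnip4, a Kv4 auxiliary subunit, at 1.11 ± 0.19. Of 30 sodium and calcium channel genes 28 lay above 0 and 6 were called, among them Scn1a (0.97 ± 0.20) and Cacna1b (1.14 ± 0.23). Of 13 synaptotagmins 12 lay above 0 and 6 were called. No member of these 6 families was called lower. Their median summed levels on days 26 and 27 were 238 and 259 scaled TPM for GABA-A receptors, 1170 and 1120 for ionotropic and 235 and 239 for metabotropic glutamate receptors. They were 1350 and 1410 for potassium channels, 355 and 422 for sodium and calcium channels and 173 and 196 for synaptotagmins, and in all 6 families the ranges of the days overlapped.

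The clustered protocadherins, 2 families likewise picked after their values were seen, split by cluster. All 14 tested rows of the alpha cluster lay above 0 (0.63 to 0.70) and 7 were called higher, at 13.9 to 42.5 summed scaled TPM on day 26 and 30.9 to 79.9 on day 27. All 22 rows of the gamma cluster lay below 0 (-0.38 to -0.22) and 19 were called lower. Of all tested genes 2.65% were called higher and 1.46% lower. Pcdhga7, the first by p, was at 86.7, 101.5 and 109.1 on day 26 and at 75.4, 81.7 and 89.2 on day 27 (-0.23 ± 0.04, adjusted p = 0.0163). Genes of each cluster share their constant exons, so the rows of a cluster count the same reads in large part and are not separate observations. Alpha protocadherins are known mainly from neurons, and gamma protocadherins act in astrocytes as well as neurons.

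Noncoding RNAs of the imprinted Dlk1-Dio3 locus were higher on day 27. On the maternal chromosome this region of chromosome 12 (109452485 to 110281097) gives a long run of noncoding RNA that includes Meg3, Rian and Mirg and many microRNA hairpins, which are best known from neurons. Meg3 (109541001 to 109571726) was at 38.5, 61.4 and 198.1 scaled TPM on day 26 and at 151.5, 206.4 and 518.6 on day 27. Only Fmr1 KO replicate 3 (198) of day 26 reached into the range of day 27, and double mutant replicate 2 (151) lay just below it. The difference was 1.77 ± 0.37 (adjusted p = 0.0253). It was 3.00 in WT, 2.53 in Smad4 cKO, 0.99 in Fmr1 KO and 0.96 in the double mutant, and the interaction of day with the Fmr1 label was not called (-1.77 ± 0.64, adjusted p = 0.363). Rian differed by 1.38 ± 0.31 and Mirg by 1.36 ± 0.30. Snhg11, a neuronal snoRNA host gene on chromosome 2 (158375638 to 158386145), went from 52.2, 86.0 and 239.9 to 182.5, 285.3 and 757.8, a difference of 1.71 ± 0.33 (adjusted p = 0.0202). Without Smad4 cKO replicate 6, Fmr1 KO replicate 1 or Fmr1 KO replicate 2, Meg3 kept differences of 1.52, 1.72 and 1.67 and was no longer called.

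**Figure D3:**
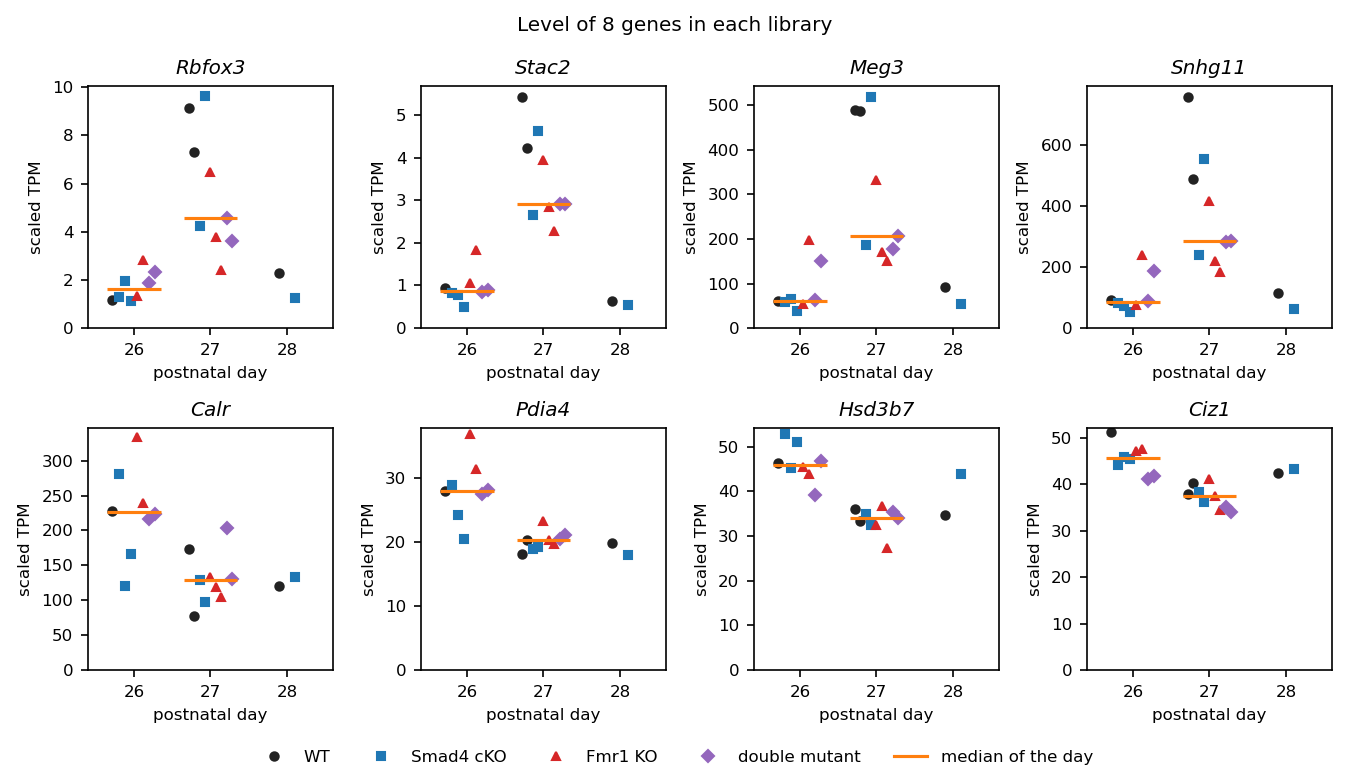
Scaled TPM (y axis, from 0) of 8 genes in each of the 19 libraries by postnatal day (x axis), with the median of days 26 and 27 as a line. The upper row holds genes that rose and the lower row genes that fell. Stac2 and Hsd3b7 do not overlap between days 26 and 27, Meg3 overlaps through 1 day-26 library at 198, and both day-28 libraries are at or below 93 for Meg3.

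Of 68 tested rows at this locus 66 lay above 0, with a median of 1.57, and 10 were called, all higher (2.65% of all tested genes). Among them were 7 of 56 tested microRNA rows. The 671 microRNA rows tested elsewhere in the genome had a median of 0.13, with 387 above 0 and 7 called. The 2 rows of the locus below 0 were Mir487b (-1.04 ± 0.74) and Dio3os (-0.49 ± 0.24), neither called. The filter took the mean over both days, so a row near 0 on day 26 could pass through day 27 alone. Mir673 and DQ267101, listed at 0 in all 8 day-26 libraries, passed in this way and could not lie below 0. The share of rows above 0 is thus set in part by the filter. A microRNA row here counts fragments of nuclear RNA over a hairpin of fewer bases than most transcripts, so it holds reads of the host transcript and does not measure the mature microRNA. Mir494 was listed at 0 in 7 of 8 day-26 libraries and between 4.79 and 25.0 scaled TPM in all 9 of day 27. Mir410 was listed at 0 in 7 of the 8 and in 1 of the 9. Mir770, inside Meg3, was at 90.4 at the median of day 26 and 347.8 at that of day 27 (1.85 ± 0.39), and Mir433 at 8.80 and 28.2 (1.40 ± 0.35). Mir1906-1 holds the same values as Mir1906-2, a copy on chromosome X that is counted among the called rows elsewhere, so its reads cannot be placed. Of 8 mature products annotated at 4 of the 7 called hairpins, 6 are given here, both of Mir494 and Mir410 and 1 each of Mir770 and Mir433, from RefSeq (GRCm38.p6), with the seed, bases 2 to 8, in capitals. The 5p products of Mir494 and Mir410 share the seed GGUUGUC, and no other pair among the 13 mature sequences of the called rows shares one.
miR-494-5p: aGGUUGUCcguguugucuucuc
miR-410-5p: aGGUUGUCugugaugaguucg
miR-494-3p: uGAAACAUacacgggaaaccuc
miR-410-3p: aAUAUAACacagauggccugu
miR-770-5p: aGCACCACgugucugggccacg
miR-433-3p: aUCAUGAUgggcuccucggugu

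**Figure D4:**
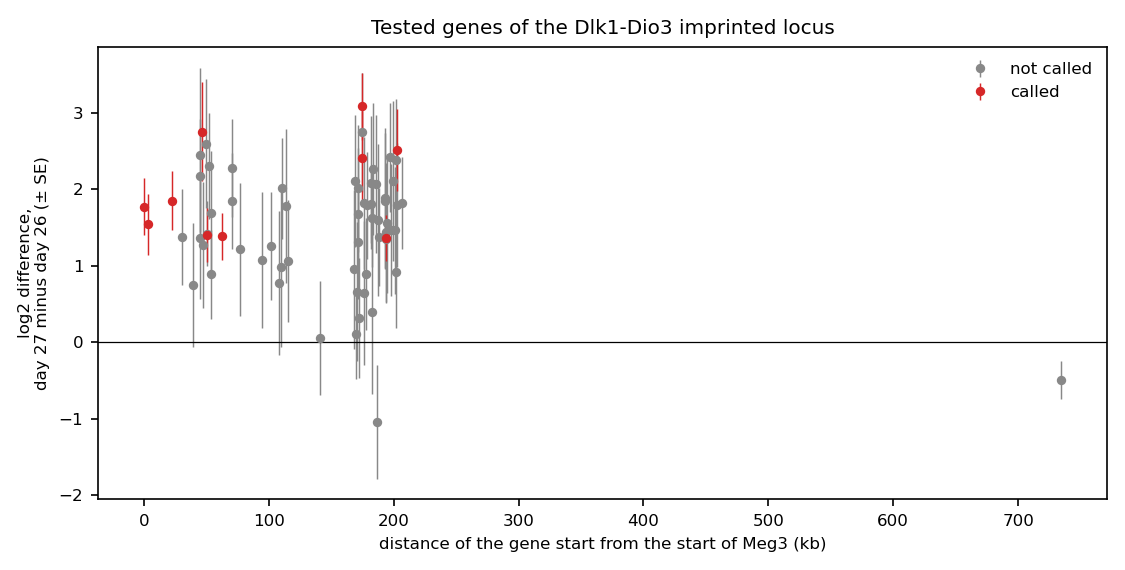
Log2 difference between day 27 and day 26 (y axis, points with SE bars) of the 68 tested rows of the Dlk1-Dio3 locus by the distance of the row's start from the start of Meg3 (x axis, kb). Red points are the 10 called rows. Of the 68 points 66 lie above 0, and the row farthest from Meg3 is Dio3os at -0.49. Rows listed at 0 in every day-26 library could not lie below 0.

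A second imprinted neuronal locus, Snrpn to Ube3a on chromosome 7 (59228750 to 60450177), had 7 of 9 rows above 0 and 3 called. These 3 were called higher, as were 2.65% of all tested genes. Ipw, a noncoding RNA of the paternal chromosome, was at 3.96 scaled TPM at the median of day 26 and 11.9 at that of day 27, with the highest day-26 library at 7.85 and the lowest day-27 library at 7.34 (1.32 ± 0.23, adjusted p = 0.0163). Snrpn and Snurf, whose rows hold identical values, differed by 0.36 ± 0.08. The rows of Snord116l1 and Snord116l2 also hold identical values (1.30 ± 0.66, not called), so the 9 rows are not separate observations. Ube3a, which overlaps the antisense transcript of the locus, was not called (-0.10 ± 0.06). The use of strand in counting is not stated, so reads of overlapping genes cannot be told apart.

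Markers of other cell types moved in both directions. Of 12 oligodendrocyte precursor markers all lay below 0, with a median of -0.64, and 2 were called lower (1.46% of tested genes were called lower). Pdgfra, the growth factor receptor of these precursors, was at 3.38, 6.92 and 20.5 scaled TPM on day 26 and 1.59, 3.02 and 5.05 on day 27. The days overlapped, and the difference was -1.28 ± 0.27 (adjusted p = 0.0260). Cspg4, the proteoglycan NG2, went from 7.75, 10.96 and 21.8 to 4.49, 5.57 and 10.4 (-0.91 ± 0.21, adjusted p = 0.0309). The list summed to between 250 and 1140 on day 26 and between 146 and 735 on day 27. Dcx, a microtubule protein of young neurons, rose by 0.76 ± 0.19.

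Microglia markers stood lower on day 27 without passing the test. All 15 lay below 0, with a median of -1.19, 14 had an unadjusted p under 0.05 and 0 were called. Trem2 differed by -1.32 ± 0.39 and Tmem119 by -1.50 ± 0.47. Their sums ran from 135 to 508 scaled TPM on day 26 and from 33.2 to 322 on day 27. All 14 endothelial markers lay below 0 with a median of -0.29 and 0 calls, at sums of 121 to 525 and 96.2 to 349. Of 9 mural and fibroblast markers 7 lay below 0, with 0 calls. Of 15 oligodendrocyte markers 14 lay above 0 with a median of 0.20, 0 calls and 0 with an unadjusted p under 0.05, and their sums spread from 274 to 3420 on day 26 and 333 to 3920 on day 27. Of 7 ependymal and choroid plexus markers 5 lay above 0, with Tmem212, a gene of ciliated cells, at 1.38 ± 0.39 (adjusted p = 0.0608). The part of any of these cell types in the differences of other genes was not tested, beyond the neuron and 3-score models below.

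Genes of astrocytes were lower on day 27 by smaller amounts. Of 20 astrocyte markers 19 lay below 0, with a median of -0.24, and 1 was called lower (1.46% of all tested genes were). Aldoc, the aldolase of astrocytes (chromosome 11, 78322968 to 78327781), was at 887, 1285 and 1689 scaled TPM on day 26 and at 612, 767 and 941 on day 27. Only double mutant replicate 3 of day 27 (941) stood above the lowest library of day 26, Fmr1 KO replicate 3 (887), and the difference was -0.71 ± 0.12 (adjusted p = 0.0163). Gja1, the gap junction protein connexin 43, differed by -0.73 ± 0.19 (adjusted p = 0.0508), Clu by -0.80 ± 0.22 (0.0573) and Apoe, the main lipid carrier of the brain, by -0.88 ± 0.27 (0.0788), none of them called. Slc1a2 (-0.03 ± 0.13), Slc1a3 (-0.12 ± 0.09) and Aldh1l1 (0.00 ± 0.10) lay near 0, and Sox9, the gene of the sorted protein, was at -0.44 ± 0.19 (adjusted p = 0.181). Among transmitter and ion homeostasis genes Atp1b2, the astrocyte sodium pump subunit, fell from a median of 1269 to 954 scaled TPM (-0.63 ± 0.15, adjusted p = 0.0341).

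Of the genes that fell with the smallest p, several are enzymes or nuclear proteins of wide expression. Ciz1, a nuclear matrix protein (chromosome 2, 32352327 to 32380970), was at 41.1, 45.6 and 51.2 scaled TPM on day 26 and 33.9, 37.5 and 41.0 on day 27. The lowest day-26 library (41.11) stood just above the highest day-27 library (41.03), and the difference was -0.30 ± 0.04 (adjusted p = 0.0103). Hsd3b7, a bile acid and sterol enzyme, was at 39.1 to 53.0 and then at 27.4 to 36.7 without overlap (-0.44 ± 0.06, adjusted p = 0.0160), and the nuclear pore protein Nup88 was at 20.1 to 22.4 and then 16.0 to 19.3, also without overlap (-0.26 ± 0.04). Pcyt2, of phosphatidylethanolamine synthesis, fell from a median of 253 to 193 (-0.35 ± 0.05). Mfng, a glycosyltransferase that modifies Notch receptors, went from 3.93 to 2.25 (-0.58 ± 0.09). Itpripl1 differed by -0.86 ± 0.14, Zfp654 by -0.35 ± 0.06, Cnppd1 by -0.31 ± 0.05 and Lrch4 by -0.30 ± 0.05.

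All 24 tested genes of cholesterol synthesis and export lay below 0, with a median of -0.28, and 4 were called lower. Of all tested genes 1.46% were called lower. Insig1, the sterol sensor that holds SREBP in the endoplasmic reticulum, was at 207.8, 280.8 and 356.7 scaled TPM on day 26 and at 153, 191.4 and 245.5 on day 27. The days overlapped, and the difference was -0.45 ± 0.11 (adjusted p = 0.0353). The sterol enzymes Tm7sf2 and Sc5d differed by -0.37 ± 0.08 and -0.38 ± 0.09. The list summed to 3930 to 6900 scaled TPM on day 26 and 2330 to 4140 on day 27.

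Genes of protein folding and degradation in the endoplasmic reticulum, a family picked after its values were seen, were lower on day 27. Of 27 tested members 26 lay below 0, with a median of -0.30, and 12 were called lower (1.46% of all tested genes were). Calr, the calcium-binding lectin chaperone calreticulin, was at 121.2, 226.1 and 333.7 scaled TPM on day 26 and at 77.2, 129.4 and 203 on day 27. The days overlapped widely, and the difference was -0.83 ± 0.20 (adjusted p = 0.0371). The disulfide isomerases Pdia4, Pdia6 and Pdia3 differed by -0.48 ± 0.07, -0.48 ± 0.10 and -0.44 ± 0.09, and Pdia4 was at 20.4 to 36.8 and then at 18.1 to 23.2. The HSP90 of this compartment, Hsp90b1, differed by -0.48 ± 0.12, the lectin chaperone Canx by -0.33 ± 0.08, the cargo receptor Lman1 by -0.43 ± 0.08 and the ubiquitin ligase Syvn1 by -0.30 ± 0.08. Hspa5, the chaperone BiP, was at -0.72 ± 0.20 with an adjusted p of 0.0577 and was not called. The list summed to 947 to 1670 on day 26 and 789 to 1240 on day 27.

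Many of these promoters carry the endoplasmic reticulum stress response element, CCAAT and CCACG held 9 bases apart, which is bound by NF-Y and ATF6 when unfolded proteins accumulate. The motif searched, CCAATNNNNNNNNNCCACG on either strand, occurred within the 300 bases from 250 before to 50 after the start in 9 of the 23 listed genes that have a promoter in the RefSeq table (39.1%), against 37 of 27025 genes overall (0.137%). The 9 were Hspa5, Hsp90b1, Calr, Canx, Pdia6, Dnajc3, Creld2, Syvn1 and Derl3. Of them Calr, Canx, Hsp90b1, Pdia6 and Syvn1 were called lower, Hspa5, Dnajc3 and Creld2 lay between -0.72 and -0.20 without a call, and Derl3 was at 0.12 ± 0.19. Among the 10 other tested genes with the motif, Pan2 was called lower (-0.21 ± 0.04). Alg12, Hnrnpa3 and Acacb lay between -0.19 and -0.009 without a call. Zfp57, Adcy3, Gm6566, Calr4, Spats2l and Xlr3b lay between 0.007 and 0.29, also without a call. Pdia4, called lower, was not among the 9 with a match. The 250 bases before the start of 4 of the called genes are shown, read on the gene's strand, with the bases of CCAAT and CCACG, or their reverse complements, in capitals. Hsp90b1 holds the motif once in each orientation.
Calr promoter, chr8:84846932-84847181, minus strand: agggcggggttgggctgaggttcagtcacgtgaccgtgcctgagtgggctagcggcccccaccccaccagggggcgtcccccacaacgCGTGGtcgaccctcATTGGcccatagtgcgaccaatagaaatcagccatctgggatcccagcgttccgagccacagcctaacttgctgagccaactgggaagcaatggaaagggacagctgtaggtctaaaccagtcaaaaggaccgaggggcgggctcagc
Hsp90b1 promoter, chr10:86705445-86705694, minus strand: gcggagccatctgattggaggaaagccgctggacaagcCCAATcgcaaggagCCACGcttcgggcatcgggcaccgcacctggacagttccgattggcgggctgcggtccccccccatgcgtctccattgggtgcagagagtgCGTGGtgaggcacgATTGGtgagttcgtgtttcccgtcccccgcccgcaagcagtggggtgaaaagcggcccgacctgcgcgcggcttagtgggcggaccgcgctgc
Pdia6 promoter, chr12:17266339-17266588, plus strand: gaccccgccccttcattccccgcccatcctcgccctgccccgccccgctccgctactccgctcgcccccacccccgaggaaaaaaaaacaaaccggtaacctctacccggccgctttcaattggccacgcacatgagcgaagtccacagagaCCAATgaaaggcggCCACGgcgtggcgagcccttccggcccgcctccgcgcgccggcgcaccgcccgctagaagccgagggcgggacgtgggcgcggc
Canx promoter, chr11:50325674-50325923, minus strand: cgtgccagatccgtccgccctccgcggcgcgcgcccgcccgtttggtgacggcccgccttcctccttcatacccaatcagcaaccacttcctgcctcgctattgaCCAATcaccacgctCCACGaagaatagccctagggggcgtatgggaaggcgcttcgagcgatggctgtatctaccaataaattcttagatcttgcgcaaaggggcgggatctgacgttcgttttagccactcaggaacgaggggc
A match in these windows describes the letters and was not tested for binding. The share of listed genes with a match follows from which genes the list holds and does not bear on the day difference. A part of this element in that difference was not tested.

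Other lists held few calls, where 2.65% of all tested genes were called higher and 1.46% lower. Among extracellular matrix genes 20 of 25 lay below 0, and Mmp15, a membrane metalloproteinase, and Lamb2, a laminin chain, fell (-0.53 ± 0.11 and -0.38 ± 0.09). Of 18 synapse regulators of astrocytes 11 lay below 0, with a median of -0.04 and 1 call. That call was Lrp1, a lipoprotein and thrombospondin receptor, which fell by 0.21 ± 0.05, and Sparc was at -0.67 ± 0.20 (adjusted p = 0.0726). Of 18 antigen presentation and interferon-response genes 16 lay below 0, and the class I gene H2-K1 fell by 0.50 ± 0.12. Of 80 cytoplasmic ribosomal protein genes 52 lay below 0 with a median of -0.05, and Rpl23a, Rps9 and Rplp2 were called lower (-0.31 ± 0.07, -0.31 ± 0.07 and -0.26 ± 0.06). Of 116 small nucleolar and Cajal body RNA genes 68 lay above 0 and 1 was called higher. Of 20 glycolysis and lactate shuttle genes 16 lay below 0, and the call was Aldoc.

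Lists that follow activity, hormones or time of day gave no call. Their counts at an unadjusted p under 0.05 stand beside 3333 of all 15038 tested genes, and no list was tested against that share. Of 22 immediate early genes 12 lay above 0 with a median of 0.09 and 0 calls, and 7 had an unadjusted p under 0.05. Npas4, which is induced by activity in neurons, was at 0.743, 2.03 and 6.59 scaled TPM on day 26 and 3.44, 7.71 and 25.8 on day 27 (1.37 ± 0.41, adjusted p = 0.0741), whereas Fos was at -0.22 ± 0.42. Of 20 glucocorticoid-responsive genes 18 lay below 0 with a median of -0.38, 0 calls and 5 at an unadjusted p under 0.05, and Fkbp5 was at -0.997 ± 0.395 (adjusted p = 0.155). Of 21 circadian clock genes 15 lay above 0 with a median of 0.06, 0 calls and 4 at an unadjusted p under 0.05. The 17 SMAD-responsive genes split 8 above and 9 below 0 with 0 calls, and 9 had an unadjusted p under 0.05. Heat shock genes (18, median -0.04), nuclear-encoded oxidative phosphorylation genes (76, median -0.04), replication-dependent histone genes (57, median -0.31), cell cycle genes (9, median -0.17) and reactive astrocyte genes (14, median -0.21) also had 0 calls, with 1, 12, 11, 1 and 1 at an unadjusted p under 0.05 in that order.

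The differences of the higher genes shrank and those of the lower genes did not once neuron markers entered the model. A library's neuron score, the mean of its centred neuron marker values, ran from -1.08 to -0.028 on day 26 and from -0.086 to 1.02 on day 27, so the score and the day overlap in what they explain. Its markers were higher on day 27 in these same libraries, and 14 of them are among the 398 higher genes. Shrinkage of genes that vary with the score was thus fixed in part beforehand, and the cause of the differences was not tested. With the score as a covariate 3 genes were called (0.0199%), 1 of them among the 618. An unadjusted p under 0.05 was found for 2205 genes, against 3333 without the score. The median difference of the 398 higher genes went from 0.82 to 0.14, and 317 of them shrank to 0.5 times their size or less. The median of the 220 lower genes went from -0.32 to -0.33, 8 of them shrank as far, and all 220 kept their sign, against 319 of the 398. The median SE of the called genes went from 0.155 to 0.185. The gene called in both models was Pdia6, at -0.48 ± 0.10 without the score and -0.88 ± 0.11 with it (adjusted p = 0.00969). The other 2 were the unnamed clone genes 5930430L01Rik and B230311B06Rik.

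**Figure D5:**
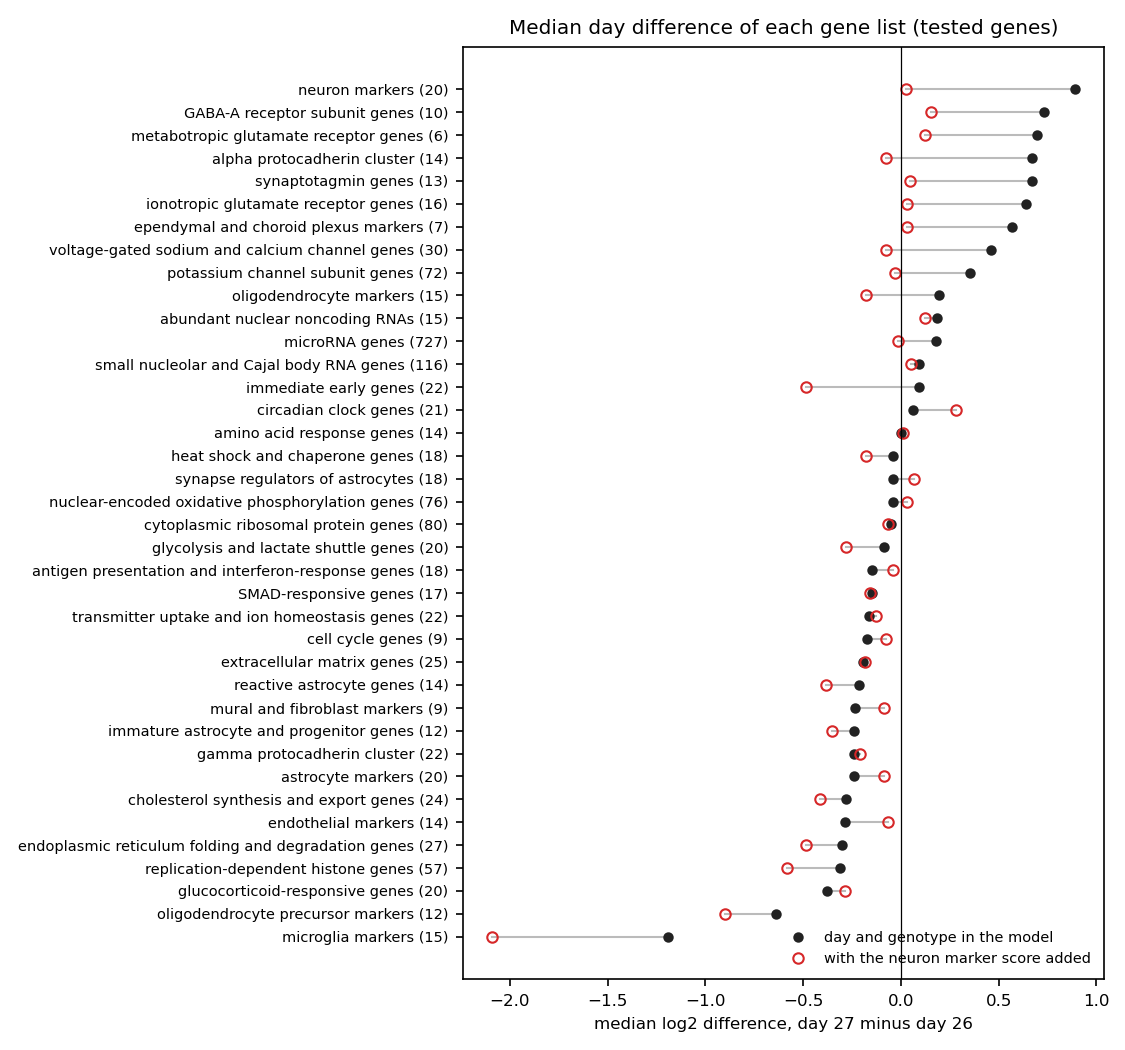
Median log2 difference between day 27 and day 26 over the tested genes of each list (x axis), with the number of tested genes in brackets. Filled points are from the model with day and genotype, and open points from the model with the neuron score added. Neuron markers go from 0.89 to 0.03 and GABA-A receptor subunits from 0.73 to 0.16, while endoplasmic reticulum folding genes go from -0.30 to -0.49 and microglia markers from -1.19 to -2.09.

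By list, the neuron markers themselves went to a median of 0.03, which follows from how the score is made, and the alpha protocadherins to -0.08. Meg3 went to 0.47 (1.77 without the score), Snhg11 to 0.38 (1.71) and Rbfox3 to 0.29 (1.21). A few genes that rose kept their size, among them Vmn2r87 at 0.71 (0.72) and Sntb2 at 0.51 (0.55). Among lower lists, cholesterol genes went to -0.41 (-0.28), endoplasmic reticulum folding genes to -0.49 (-0.30) and oligodendrocyte precursor markers to -0.90 (-0.64), and astrocyte markers to -0.09 (-0.24). Ciz1 (-0.33), Hsd3b7 (-0.49), Calr (-1.35) and Aldoc (-0.66) kept at least their size or nearly so, none of them called in that model. With neuron, oligodendrocyte and microglia scores together 0 genes were called and 1755 had an unadjusted p under 0.05, and the medians of the 398 and the 220 genes were 0.07 and -0.22. With these 3 scores the medians were -0.37 for cholesterol genes, -0.27 for endoplasmic reticulum folding genes and -0.57 for oligodendrocyte precursor markers. Astrocyte markers were at 0.05, and microglia markers, which make 1 of the scores, at -0.13. Aldoc was at -0.50 and Atp1b2 at -0.001. When the 4 libraries that led their genotypes in neuron score were left out, all of day 27, 0 genes were called, 2598 had an unadjusted p under 0.05, and the medians were 0.58 and -0.33.

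Whether the day difference itself depended on genotype was tested for both labels. The interaction of day with the Smad4 label gave 0 calls, with 643 genes at an unadjusted p under 0.05 and a smallest adjusted p of 0.913. The interaction with the Fmr1 label gave 1 call (0.00665% of tested genes), Lamtor5, a subunit of the Ragulator complex that anchors mTORC1 signalling at lysosomes, and 1769 genes at an unadjusted p under 0.05. In the libraries labelled Fmr1 +/y Lamtor5 was at 24.1 to 31.6 scaled TPM on day 26 and 17.4 to 19.7 on day 27. In those labelled Fmr1 -/y it was at 18.8 to 25.8 and then 23.5 to 26.2. The first pair of ranges did not overlap and the second did, and the interaction was 0.78 ± 0.09 (adjusted p = 0.0158). The call was lost without WT replicate 1 (0.74, adjusted p = 0.373) and without each of 8 other libraries in turn, at adjusted p of 0.0508 to 0.0981.

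The 2 libraries of day 28, 1 WT and 1 Smad4 cKO, were in no fit above and have no replicate within a genotype. Their neuron lists summed to 101 and 74.8 scaled TPM, within the range of day 26 and below that of day 27. Meg3 was at 93 and 53.4 and Snhg11 at 115 and 62, and Mir494 was listed at 0 in both. Set beside WT and Smad4 cKO libraries of the other days, the day-28 mean was nearer to day 26 than to day 27 for 370 of the 398 higher genes (93%) and for 150 of the 220 lower genes (68.2%), against 59.9% of all tested genes. Of the genes that fell, Pdia4 was at 19.8 and 18, at the level of day 27, and Calr at 120 and 133, near the low end of day 26 and inside day 27. With day as a number over all 19 libraries 0 genes were called (1088 at an unadjusted p under 0.05), and with days 26 and 28 together against day 27 1271 were.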

How the data were processed

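Nuclear RNA of sorted cortical nuclei was sequenced after ribosomal RNA depletion (Ribo-Zero Plus), per the labels' protocols. The authors deposited 1 table of TPM for 24537 genes. Per the submitters' processing notes, the tools were bcl2fastq 2.20, MultiQC 1.0, STAR 2.5.3a and HOMER 4.10.4 with build mm10. The sources used here do not state the counting of exons or gene bodies, nor the strand setting.

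TPM were divided by a median-of-ratios library factor. The 15038 genes whose mean was at least 1 TPM over the 17 libraries were tested as log2(scaled TPM + 1) with limma 3.58.1 (R 4.3.3, mean-variance trend) on day and genotype, with Benjamini-Hochberg adjustment over all of them, and called at an adjusted p under 0.05. Interactions used a separate day term for each label. The procedure was tested on simulated data. Python 3.11.15 and matplotlib 3.10.9 drew the figures. Positions are from GENCODE vM21 on GRCm38, matched for 14667 tested genes (97.5%), and sequences from RefSeq (GRCm38.p6).

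The members, the 28 gene lists and the naming rule were chosen with earlier results of these data known, and 10 families, named in the text as picked after their values were seen, were added later. The rule named Rn45s, Fmr1 and Smad4, up to 15 higher and 15 lower genes by adjusted p, up to 6 called members of each list and up to 3 by p, and up to 3 a direction for each interaction. It passed over names of clones, predicted genes and small RNAs. Some genes it named are not reported here. Further members of the lists, families and loci were chosen for the text after their values were seen. Alternatives covered scaling, pseudocount, filter, genotype term, libraries, scores, weights, threshold and leaving out each of 17 libraries. The neuron score alone, the fit without the 4 libraries that led in neuron score, and days 26 and 28 together were chosen after seeing the data.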

Additional observations from a re-analysis of the deposited data

Results flagged for a closer look

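Of 254 sets of day-26 or day-27 values of a reported gene or library measure, 8 (3.15%) had a library far from the others, where chance gives about 5%. On day 26 Ddit4, a glucocorticoid- and stress-responsive gene, was at 267 scaled TPM in Fmr1 KO replicate 2 (next highest 185), Stac2 at 1.83 in Fmr1 KO replicate 3 (next 1.06), and Pcyt2 at 213 in double mutant replicate 1 (next lowest 241). On day 27 Smad4 cKO replicate 5 was the highest for B2m (26.3, next 15.8), Cspg4 (10.4, next 6.75) and Kdr (10.6, next 6.26), which belong to the antigen presentation, oligodendrocyte precursor and endothelial lists. On day 27 Nr4a3, an immediate early gene, was at 13.5 in WT replicate 3 (next 4.83), the WT library with the highest neuron score, and Hsd3b7 was at 27.4 in Fmr1 KO replicate 5 (next lowest 32.4). Lamtor5 differed in its day difference between libraries labelled Fmr1 -/y and Fmr1 +/y by 0.784 (interaction test in limma, adjusted p = 0.0158).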

How the results depend on the processing

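The sign of all tested members of the 618 called genes was kept in every alternative run except with the neuron score (539 kept) and 3 scores (455 kept). The count was 209 at a mean TPM of at least 5 (97 higher, 112 lower), 986 with no genotype term, 1483 at a threshold of 0.1 and 1271 with day 27 against days 26 and 28. It was 0 with day as a number, without the WT libraries (2468 at an unadjusted p under 0.05), with 3 scores and without the libraries of highest neuron score, and 3 with the neuron score. With a replicate block 1 gene was called. Of 19 same-numbered pairs 1 had a correlation of deviations over 0.1, with a median of -0.032. Whether libraries of the same number shared a session cannot be told from these correlations or from the labels. Leaving out 1 library gave 0 to 925. TPM as deposited gave 375 higher and 124 lower (75.2% higher), and quantile normalization 363 and 314 (53.6%), against 64.4%. With 3 scores Mirg (-0.00115), Rbfox3 (-0.049), Rian (-0.100) and Syn1 (-0.103) changed sign, and the cause was not tested. Leave-one-out counts were 0 to 1 for the day by Smad4 interaction and 0 to 3 for the day by Fmr1 interaction. The Rn45s difference ran from 3.00 to 5.99 points and that of genes above 0 from 153.2 to 253.6. Without depth or counts, values near 0 TPM cannot be given an error from counting.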
